A study of Mus musculus with 6 samples.

Results

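The genes described here belong to families known for enzymes that make foreign and reactive molecules harmless. The families are glutathione transferases (Gst), UDP-glucuronosyltransferases (Ugt), sulfotransferases (Sult), aldehyde dehydrogenases (Aldh), alcohol dehydrogenases (Adh), flavin monooxygenases (Fmo), carboxylesterases (Ces) and epoxide hydrolases (Ephx). Members were chosen by gene symbol, leaving out Aldh3a1, and needed at least 10 counts summed over the distinct libraries. Some therefore lie outside detoxification: Ces2d-ps is annotated as a pseudogene, and Aldh18a1 is an enzyme of proline synthesis. Of 117 symbols that matched, 67 were members, out of 23238 symbols in all. Another 41 symbols had 0 counts in all libraries and 9 had fewer than 10. At the edge of this rule, Ephx4 was a member with 10 counts and Gstm3 was left out with 8. The samples were lungs of wild-type mice that received either PM or phosphate-buffered saline (PBS) as vehicle, by a route abbreviated i.t. The series title calls the exposure chronic, and the question was how it alters lung gene expression. The sources used here give no strain, age, dose or duration and do not spell out PM.

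Detoxification proceeds in steps. Flavin monooxygenases oxidise nitrogen and sulfur atoms, carboxylesterases cut esters and amides, and epoxide hydrolases open the reactive epoxides that cytochromes P450 form from aromatic hydrocarbons. Alcohol dehydrogenases turn alcohols into aldehydes, and aldehyde dehydrogenases turn aldehydes, including products of lipid peroxidation, into acids. Glutathione transferases, glucuronosyltransferases and sulfotransferases attach a water-soluble group to the product so that it can be exported. Many of these genes are known targets of NRF2, a transcription factor activated by electrophiles and oxidants, and in lung several are abundant in the club cells of the airways.

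PBS replicates 1 and 2 have identical tables, which count here as 1 library, so 2 PBS libraries were compared with 3 PM libraries, with total counts from 7410200 to 8827202. Whether the samples were separate animals is not in the labels, and p-values thus reflect the spread among these libraries alone. Levels below are CPM (counts scaled to the library total after TMM adjustment), with SD over libraries, and log2 folds are PM minus PBS with their standard error (SE). The lung markers Sftpc, Ager and Scgb1a1 were abundant in every library, while of 7 hepatocyte markers Alb, Apoa1, Apoa2, Ttr, Serpina1a and Fgb lay between 0 and 0.573 CPM. The exception, Cyp2e1, reached 10.1 CPM in PM replicate 3.

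No detoxification enzyme passed the test between PM and PBS lung. Of the 67 members, 53 had enough counts to be tested, and 0 were called by edgeR's quasi-likelihood test at a Benjamini-Hochberg adjusted p below 0.05, where 0.228% of all 14057 tested genes were called (0.142% higher and 0.0854% lower). The smallest edgeR value among the members, Benjamini-Hochberg adjusted p = 0.121, belonged to Gstm2. At an unadjusted p below 0.05, 5 members were higher and 3 lower in PM, together 15.1% of the members beside 13.3% of all tested genes (7.26% of them higher and 6.05% lower). For 7 members every PM value exceeded both PBS values and for another 7 every PM value was below both, which is 13.2% each way beside 15.5% and 16.1% of all tested genes. These shares are near the background. The median log2 fold of the tested members was -0.09, against 0.01 over all tested genes, and 25 were positive and 28 negative. DESeq2 called 1 member, the glutathione transferase Gsto1, where it called 2.05% of 18027 genes. It gave no adjusted p for 12 of the 67 members, and of the 14241 genes with an adjusted p it called 2.59%.

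**Figure D1:**
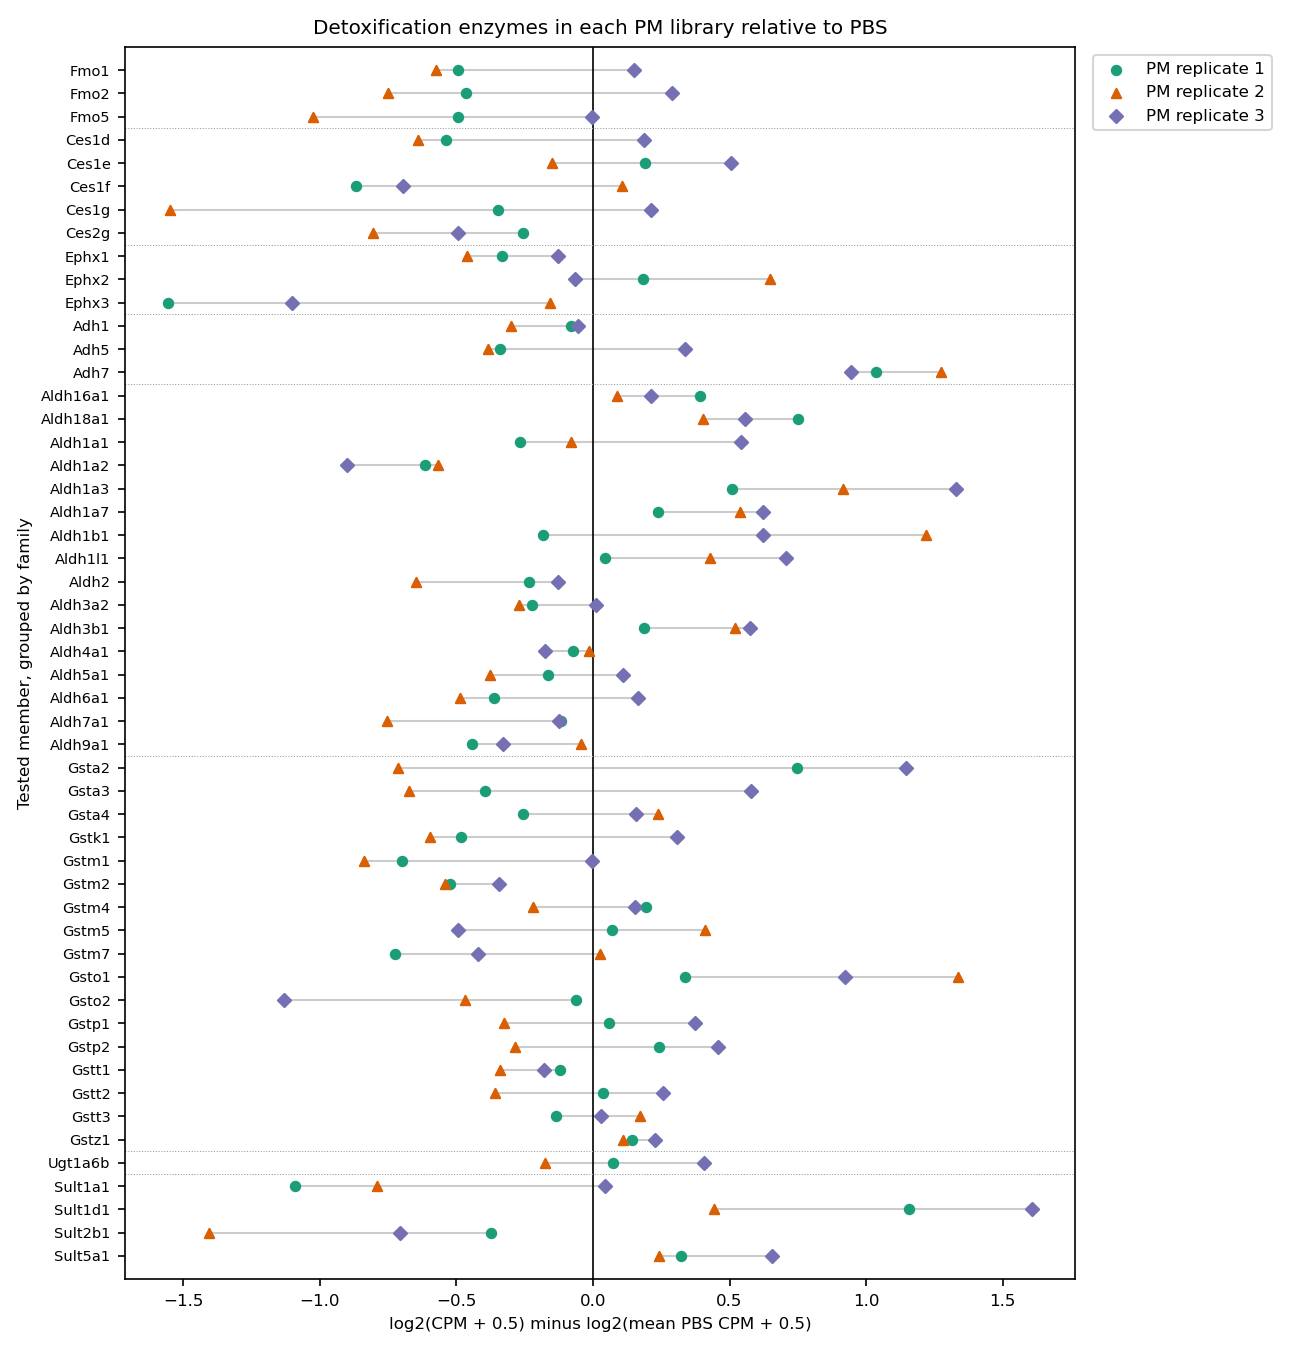
Each row is 1 of 52 tested members, grouped by family, and each symbol is its level in a PM library relative to the mean of the PBS libraries, as a difference of log2(CPM + 0.5); the grey line spans the PM libraries. In 25 of these rows PM replicate 3 is the rightmost symbol and PM replicate 2 the leftmost. Rows wholly to the right of 0 include Adh7, Gsto1 and Sult1d1, and rows wholly to the left include Gstm2, Aldh1a2 and Ces2g.

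The 8 members at an unadjusted p below 0.05 were Gsto1, Adh7, Aldh1a7, Aldh3b1 and Sult1d1, all higher in PM, and Gstm2, Aldh1a2 and Ces2g, all lower. In each of them the groups did not overlap. They act at different steps: 3 oxidise aldehydes, 1 oxidises alcohols, 3 conjugate and 1 cuts esters.

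**Figure D2:**
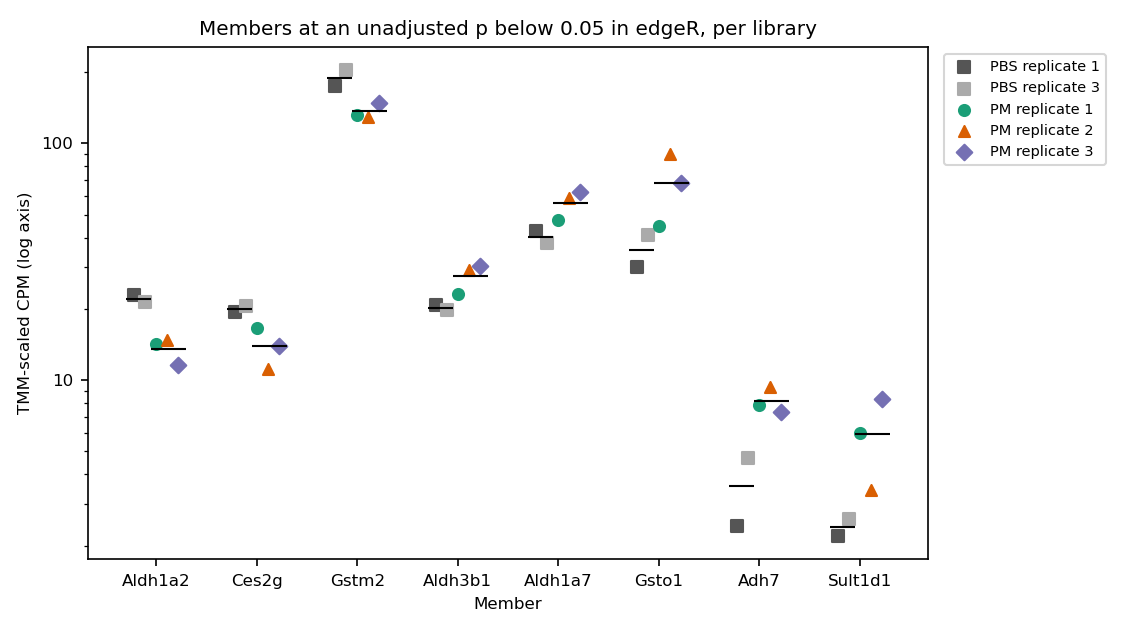
Levels of the 8 members at an unadjusted p below 0.05, in TMM-scaled CPM on a log axis, with 1 symbol per library and a short line at the mean of each group. The 3 members on the left were lower in every PM library than in both PBS libraries, and the 5 on the right were higher.

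Levels per length, in CPM per kilobase of annotated exon, ranged widely and kept the same leader in every library. Gstm1, a mu-class glutathione transferase, ranked first in all 5 libraries, with a mean of 215.7 CPM per kilobase. Aldh1a1, a cytosolic enzyme that oxidises retinaldehyde, followed at 99.1, Aldh2, the mitochondrial enzyme that clears acetaldehyde, at 95.7 and Gstm2 at 93.8. Fmo2, the flavin monooxygenase typical of lung, stood at 70.0 and Ces1d at 66.7 CPM per kilobase. The order of Aldh1a1, Aldh2 and Gstm2 differed between libraries, so these neighbours are not separated beyond their spread. Gsto1 ranked 19 in PBS replicate 1 and 9 in PM replicate 2. The 10 members with the highest CPM took 73.6% of all counts of the 67 members.

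Among the flavin monooxygenases, the abundant members were lower in PM replicates 1 and 2 and not in PM replicate 3. Fmo2 stood at 412.7 and 451.5 CPM in PBS lung and at 312.6, 256.8 and 528.7 CPM across PM replicates 1, 2 and 3. The PM range thus enclosed both PBS values. This gave a log2 fold of -0.24 ± 0.32 SE (edgeR, Benjamini-Hochberg adjusted p = 0.815). Fmo1 stood at 123.7 and 156.8 CPM in PBS lung and at 99.3, 94.0 and 155.7 CPM in PM. Fmo5, an unusual family member that oxidises ketones, stood at 28.9 and 36.3 CPM in PBS lung and at 23.0, 15.7 and 32.5 CPM in PM. Each had PM replicate 2 as its lowest library. Fmo4 and Fmo6 had too few counts to be tested.

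Carboxylesterases did not share 1 order of the PM libraries. Ces1d, the most abundant, hydrolyses drug esters and stored lipids, and stood at 166.2 and 187.3 CPM in PBS lung and at 121.6, 113.2 and 201.3 CPM across PM replicates 1, 2 and 3. PM replicate 3 was the highest library and PM replicate 2 the lowest. Ces2g was the only one of the 5 tested carboxylesterases with no overlap, at 19.3 and 20.5 CPM in PBS and at 16.6, 11.2 and 14.0 CPM in PM, with a log2 fold of -0.51 ± 0.21 SE. In edgeR its Benjamini-Hochberg adjusted p was 0.323. Ces1e was at 8.64 ± 0.879 CPM in PBS lung and 10.04 ± 2.37 CPM in PM lung. Ces1f was highest in PM replicate 2, at 1.28, 3.01 and 1.51 CPM across PM replicates 1, 2 and 3, with a log2 fold of -0.52. Ces1g was also near 2 CPM, with a log2 fold of -0.48, and Ces2b, Ces2c, Ces2d-ps and Ces2e were not tested.

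Among the epoxide hydrolases, Ephx1, the microsomal enzyme that opens epoxides of aromatic hydrocarbons, was the abundant member. It stood at 102.7 and 125.8 CPM in PBS lung and at 90.6, 82.9 and 104.5 CPM across PM replicates 1, 2 and 3. The groups overlapped only through PM replicate 3 and PBS replicate 1. The fold on the log2 scale was -0.30 ± 0.14 SE (edgeR, Benjamini-Hochberg adjusted p = 0.378). Ephx2, the soluble enzyme that acts on epoxides of fatty acids, was at 2.92 ± 0.122 CPM in PBS lung and 3.67 ± 1.08 CPM in PM lung. Ephx3 was at 1.65 ± 0.770 and 0.723 ± 0.628 CPM, too few counts to place its fold well (-1.23 ± 0.82 SE).

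The alcohol dehydrogenase that stood out was Adh7, the class IV enzyme of upper digestive and airway epithelium, which oxidises ethanol and retinol. It was at 2.43 and 4.69 CPM in PBS lung and at 7.82, 9.30 and 7.31 CPM across PM replicates 1, 2 and 3. Every PM library lay above both PBS libraries, and the PM libraries were close together. Its log2 fold was 1.19 ± 0.37 SE (edgeR, Benjamini-Hochberg adjusted p = 0.180, and 0.0455 to 0.679 over the alternatives). Exons of Adh7 overlap those of 0610031O16Rik on the opposite strand. Adh1, the abundant class I enzyme, was at 138.1 ± 13.1 CPM in PBS lung and 125.1 ± 11.5 CPM in PM lung. Adh5, which also clears formaldehyde bound to glutathione, was at 24.2 ± 2.69 and 22.7 ± 6.93 CPM, and both overlapped between groups.

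Of the 4 Aldh1a genes, the subfamily that includes the enzymes making retinoic acid, none passed the test. Aldh1a2 was lower and Aldh1a7 higher in PM without overlap, and the groups overlapped for Aldh1a1 and Aldh1a3. Aldh1a2 stood at 22.8 and 21.3 CPM in PBS lung and at 14.2, 14.7 and 11.6 CPM across PM replicates 1, 2 and 3. This gave a log2 fold of -0.71 ± 0.19 SE (edgeR, Benjamini-Hochberg adjusted p = 0.144). Only the fit that counts the identical PBS tables as 2 libraries fell below 0.05 (edgeR, Benjamini-Hochberg adjusted p = 0.0293). Its p-value does not measure the spread among libraries. The fold lay between -0.78 and -0.61 in all 12 alternatives. Aldh1a7, a rodent paralog of Aldh1a1, stood at 42.6 and 37.7 CPM in PBS lung and at 47.5, 58.5 and 62.1 CPM in PM. The fold on the log2 scale was 0.48 ± 0.16 SE (edgeR, Benjamini-Hochberg adjusted p = 0.197). Aldh1a1 stood at 463.6 and 471.3 CPM in PBS lung and at 388.6, 442.0 and 680.5 CPM in PM, highest in PM replicate 3. Aldh1a3 was at 0.752 ± 1.06 CPM in PBS, with 0 counts in PBS replicate 3, and at 1.93 ± 0.683 CPM in PM. Of the Aldh1a7 transcript sequence, 7.49% of 50-base stretches also occur in Aldh1a1.

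Aldh2 was lower in every PM library than in both PBS libraries, at 556.2 and 557.3 CPM in PBS and at 473.2, 355.6 and 509.6 CPM across PM replicates 1, 2 and 3. PM replicate 2 was well below the others. Its log2 fold was -0.32 ± 0.15 SE (edgeR, Benjamini-Hochberg adjusted p = 0.378). Aldh3b1, which oxidises aldehydes derived from membrane lipids, stood at 20.7 and 19.7 CPM in PBS lung and at 23.1, 29.2 and 30.4 CPM in PM. This gave a log2 fold of 0.44 ± 0.18 SE (edgeR, Benjamini-Hochberg adjusted p = 0.319). Of the 10 other tested aldehyde dehydrogenases, Aldh18a1, an enzyme of proline synthesis, lay higher and Aldh7a1, an enzyme of lysine breakdown, lower without overlap. They stood at log2 folds of 0.68 and -0.31. Among those 10 the smallest edgeR value was a Benjamini-Hochberg adjusted p of 0.563.

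Among the glutathione transferases, Gsto1 was higher and Gstm2 lower in PM. Gsto1, an omega-class enzyme with thioltransferase activity, stood at 29.98 and 40.9 CPM in PBS lung and at 44.9, 90.3 and 67.6 CPM across PM replicates 1, 2 and 3. PM replicate 1 lay just above PBS replicate 3, and PM replicate 2 was highest. The fold on the log2 scale was 0.93 ± 0.30 SE, with a Benjamini-Hochberg adjusted p = 0.260 in edgeR and 0.0247 in DESeq2 (0.0182 to 0.702 over the alternatives). Gstm2 stood at 174.2 and 203.4 CPM in PBS lung and at 131.3, 129.7 and 148.5 CPM in PM. Its log2 fold was -0.47 ± 0.12 SE (edgeR, Benjamini-Hochberg adjusted p = 0.121, and 0.0344 to 0.740 over the alternatives). Gstt1, a theta-class enzyme, was lower without overlap, at 69.8 ± 3.79 CPM in PBS lung and 60.2 ± 4.71 CPM in PM lung.

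Gstm1, the most abundant of the family, had the same mean fold as Gstm2 and a wider spread. It stood at 336.4 and 425.7 CPM in PBS lung and at 234.3, 212.9 and 379.7 CPM across PM replicates 1, 2 and 3, so PM replicate 3 lay within the PBS range. This gave a log2 fold of -0.47 ± 0.27 SE. Gsta2 was at 1.26 ± 0.310 CPM in PBS lung and 2.14 ± 1.44 CPM in PM lung. The 12 other tested transferases had log2 folds from -0.63 (Gsto2) to 0.17 (Gstp2), none without overlap. Of 50-base stretches in the transcripts, Gstm1 shares 18.9% with other genes, Gstp1 33.7%, Gstp2 54.3% and Gsta2 49.8%, so the division of reads among these copies is uncertain. Gsta3, an alpha-class enzyme, spread widely among the PM libraries, at 67.6 and 74.1 CPM in PBS and at 53.7, 44.2 and 105.9 CPM in PM.

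The stretch of 250 bases before the transcription start (RefSeq, GRCm38.p6) was searched in the 52 members that have an entry, on both strands, for TGACNNNGC, the core of the antioxidant response element that NRF2 binds. It was found for 5 members, Aldh1a2, Aldh9a1, Gsta3, Gstm5 and Gstm7, in 7.58% of the members' windows beside 10.2% of all 32851 windows. The windows of Aldh1a2 and Gsta3 are printed because they hold a match, in capitals. The windows of Gsto1 and Adh7 are printed because these 2 genes stood higher in every PM library and hold none. All 4 lie on the plus strand, read 5′ to 3′. The match begins 112 bases before the start of Aldh1a2 and 121 bases before that of Gsta3. The groups separated for Aldh1a2, downward, and not for Gsta3.
Aldh1a2, chr9:71215539-71215788: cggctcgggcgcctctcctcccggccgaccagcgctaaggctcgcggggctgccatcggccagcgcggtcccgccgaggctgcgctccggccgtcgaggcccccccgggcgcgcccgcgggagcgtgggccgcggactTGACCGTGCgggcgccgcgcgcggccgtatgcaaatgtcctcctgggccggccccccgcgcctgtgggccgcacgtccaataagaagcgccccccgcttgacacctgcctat
Gsta3, chr1:21240335-21240584: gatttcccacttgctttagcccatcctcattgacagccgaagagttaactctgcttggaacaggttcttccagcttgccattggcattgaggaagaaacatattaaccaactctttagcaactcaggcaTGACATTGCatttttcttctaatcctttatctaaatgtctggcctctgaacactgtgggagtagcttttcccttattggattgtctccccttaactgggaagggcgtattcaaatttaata
Gsto1, chr19:47854723-47854972: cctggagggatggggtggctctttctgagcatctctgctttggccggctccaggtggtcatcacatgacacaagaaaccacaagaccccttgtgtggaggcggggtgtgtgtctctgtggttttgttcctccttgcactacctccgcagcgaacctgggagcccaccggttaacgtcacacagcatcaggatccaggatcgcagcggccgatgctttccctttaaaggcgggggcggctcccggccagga
Adh7, chr3:138217523-138217772: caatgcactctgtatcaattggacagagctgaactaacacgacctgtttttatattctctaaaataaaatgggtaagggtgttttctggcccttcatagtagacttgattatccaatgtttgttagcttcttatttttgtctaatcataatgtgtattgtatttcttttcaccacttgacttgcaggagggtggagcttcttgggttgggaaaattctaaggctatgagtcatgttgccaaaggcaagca

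Among the glucuronosyltransferases counts were assigned almost wholly to Ugt1a6b, which conjugates phenols and was the single tested member, at 39.9 ± 0.237 CPM in PBS lung and 43.4 ± 8.99 CPM in PM lung. The genes of this locus share exons, and 79.8% of 50-base stretches of Ugt1a6b occur in other genes, so the assignment of these reads to 1 gene is uncertain. Of 21 Ugt symbols 17 had 0 counts, among them Ugt1a1, Ugt1a2, Ugt1a6a, Ugt1a7c and Ugt1a9 of the same locus, whose zeros cannot be read as absence of their transcripts. Among sulfotransferases, Sult1d1, which sulfates catecholamines and phenols, stood at 2.20 and 2.59 CPM in PBS lung and at 5.95, 3.44 and 8.31 CPM across PM replicates 1, 2 and 3. The groups did not overlap, and PM replicate 3 was highest. The fold on the log2 scale was 1.30 ± 0.46 SE (edgeR, Benjamini-Hochberg adjusted p = 0.237). Sult5a1 also lay higher without overlap, at 5.97 ± 0.0992 and 8.15 ± 1.36 CPM. Sult1a1, the main phenol sulfotransferase, stood at 25.0 and 23.3 CPM in PBS lung and at 11.1, 13.7 and 24.9 CPM in PM. PM replicate 3 was thus at the PBS level. Exons of Sult1a1 overlap those of Sgf29 on the opposite strand. Sult2b1, which sulfates cholesterol, was at 1.96 ± 0.334 and 0.946 ± 0.489 CPM, lower without overlap.

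The PM libraries tended to one order among the members. Chosen after the values were seen, the order PM replicate 3 above PM replicate 1 above PM replicate 2 held for 25 of the 53 tested members, which is 47.2% beside 20.2% of all tested genes. PM replicate 3 was the highest PM library for 60.4% of members beside 34.5% of all genes, and PM replicate 2 the lowest for 60.4% beside 35.0%. The median ratio of PM replicate 3 to PM replicate 2 was 1.32 for members and 0.995 for all tested genes. Summed over the 67 members, levels were 3380 and 3669 CPM in PBS and 2856, 2686 and 3958 CPM in PM replicates 1, 2 and 3. The sum was lower than PBS in PM replicates 1 and 2 and higher than PBS in PM replicate 3. For flavin monooxygenases it was 571.2 and 653.1 CPM in PBS and 439.3, 372.2 and 734.3 CPM in PM.

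**Figure D3:**
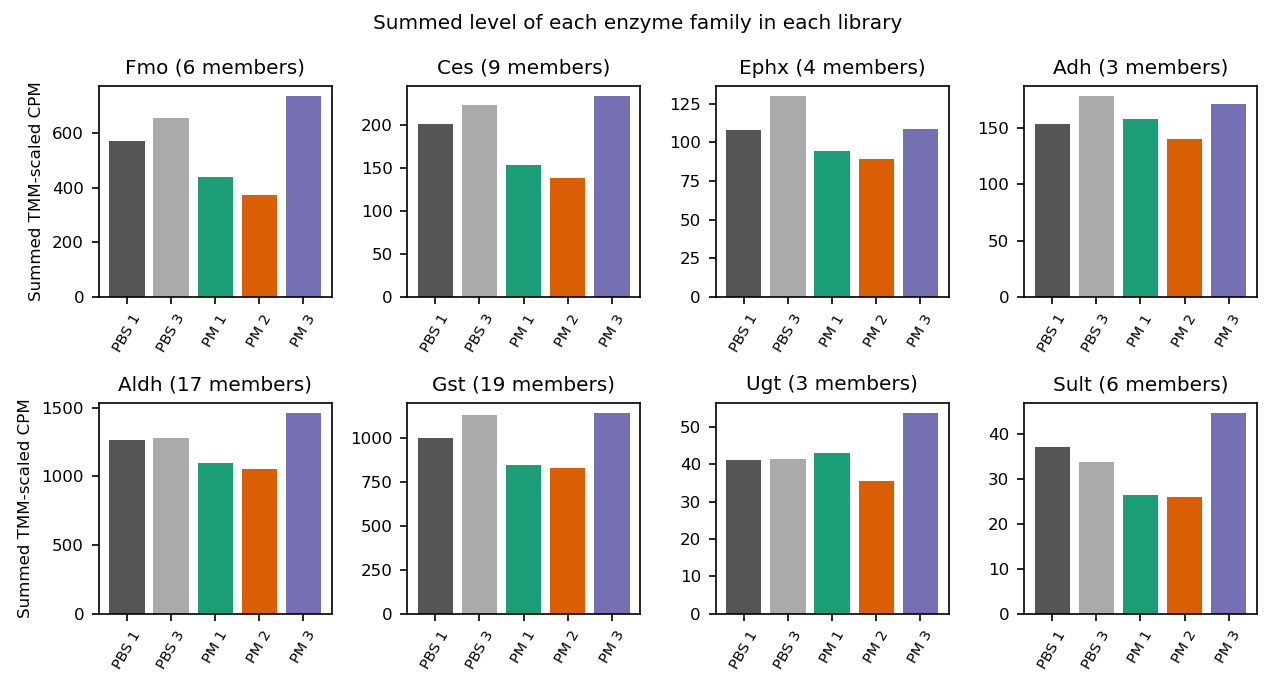
Summed level of each family in each library, in TMM-scaled CPM, with 1 bar per library and each axis from 0. In every panel PM replicate 3 is the highest of the PM libraries and PM replicate 2 the lowest.

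Without PM replicate 3, edgeR called 5 members, Gstm1, Gstm2, Fmo2, Ces1d and Sult1a1, all lower in PM, where it called 3.06% of all tested genes. Their log2 folds were then -0.77, -0.53, -0.60, -0.59 and -0.96. Leaving out any other library, 0 members were called. Club cell markers also stood high in PM replicate 3. The 7 club cell markers summed to 23124 and 23860 CPM in PBS and to 18742, 25013 and 35561 CPM in PM replicates 1, 2 and 3. Of these 7 genes 5 were highest of all libraries in PM replicate 3, and none was at 0. The 6 fat markers were highest in PM replicate 1, with sums of 53.6 and 48.1 CPM in PBS and of 126.4, 66.6 and 98.1 CPM in PM, and Lep among them was at 0 in all but 1 library. The part of either list in the members' values was not tested. In whole lung, fewer cells of a type and less RNA per cell cannot be told apart.

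Marker lists of other lung cells are given here, beside shares over all genes of 15.5% higher and 16.1% lower without overlap and 0.0854% called lower. The lists were chosen with earlier results of these data known, so their counts are not independent of these data. Of 8 fibroblast markers 5 lay lower in PM without overlap and 1, Limch1, fell (edgeR, Benjamini-Hochberg adjusted p = 0.0379). The list summed to 6322 and 6034 CPM in PBS and to 4683, 4069 and 3930 CPM in PM. A large part of these sums is Inmt, which is also in a list below. All 4 tested mesothelial markers (Msln, Upk3b, Wt1 and Lrrn4) were detected, at sums of 127.3 and 104.3 CPM in PBS and 101.9, 92.6 and 99.5 CPM in PM. The 6 endothelial markers summed to 1559 and 1636 CPM in PBS and to 1336, 1153 and 1289 CPM in PM, 5 of them lower without overlap. Of 6 alveolar type 1 markers 4 lay lower without overlap, at sums of 4435 and 4598 CPM in PBS and of 3443, 3378 and 3735 CPM in PM. The fibroblast, mesothelial, endothelial and alveolar type 1 sums were lower in every PM library, as were Aldh1a2, Aldh2 and Gstm2. The part of these lists in those values was not tested. The 7 alveolar macrophage markers summed to 279.8 and 529.5 CPM in PBS and to 1106, 1405 and 937.7 CPM in PM. Smooth muscle markers showed no such order, at 319.7 to 384.6 CPM in PBS and 344.5 to 487.6 CPM in PM. The 7 ciliated cell markers summed to 347.9 and 316.5 CPM in PBS and to 335.0, 390.5 and 431.3 CPM in PM, 4 of them higher without overlap. The 7 goblet cell markers, near silent in PBS at 7.87 and 6.78 CPM, summed to 368.5, 1384 and 62.6 CPM in PM, with Muc5ac at 0 in both PBS libraries and in PM replicate 3. They were thus highest in PM replicate 2, as were the alveolar macrophage sum and Gsto1, and this too was not tested.

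Genes of the NRF2 response and genes that supply cofactors to the transferases were set beside the members, whose difference from these lists was not tested. Of 12 NRF2 genes outside the members 1 rose, Gpx2, a glutathione peroxidase of epithelia, from 11.4 ± 1.52 to 30.1 ± 6.50 CPM. Its log2 fold was 1.40 (edgeR, Benjamini-Hochberg adjusted p = 0.0379). In that list 6 genes lay higher without overlap and 0 lower, 6 passed an unadjusted p below 0.05 upward, and the median log2 fold was 0.43. Over all tested genes 15.5% lay higher and 16.1% lower without overlap, and 7.26% passed that p upward. Slc7a11, which imports cystine for glutathione synthesis, stood at 1.27 and 1.73 CPM in PBS lung and at 6.89, 14.9 and 6.05 CPM in PM (edgeR, Benjamini-Hochberg adjusted p = 0.0530). Nqo1, a quinone reductase and a standard NRF2 target, stood at 3.13 and 2.34 CPM in PBS lung and at 1.87, 0.716 and 4.03 CPM in PM. It was thus lowest in PM replicate 2, where Slc7a11 and Gpx2 were highest.

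Among the 10 genes that supply cofactors edgeR called 0, 3 passed an unadjusted p below 0.05 upward and 5 lay higher without overlap (15.5% of all genes), with 0 lower and a median log2 fold of 0.19. Gclc, the catalytic subunit of the enzyme that limits glutathione synthesis, stood at 178.9 and 139.2 CPM in PBS lung and at 312.4, 434.6 and 269.8 CPM across PM replicates 1, 2 and 3 (edgeR, Benjamini-Hochberg adjusted p = 0.0846). Gsr, which regenerates glutathione, stood at 33.5 and 31.8 CPM in PBS lung and at 53.3, 49.8 and 69.0 CPM in PM (edgeR, Benjamini-Hochberg adjusted p = 0.0605). All PM values of both genes lay above all PBS values. Papss1 and Papss2, which make the sulfate donor, and Ugp2, which makes the precursor of the glucuronate donor, overlapped between groups. Ugdh, the enzyme after Ugp2, lay higher without overlap, at 23.4 and 24.3 CPM in PBS and from 25.6 to 31.2 CPM in PM. DESeq2 called 2 of these 10 and 4 of the 12 NRF2 genes, where it called 2.05% of all 18027 genes and 2.59% of those with an adjusted p.

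**Figure D4:**
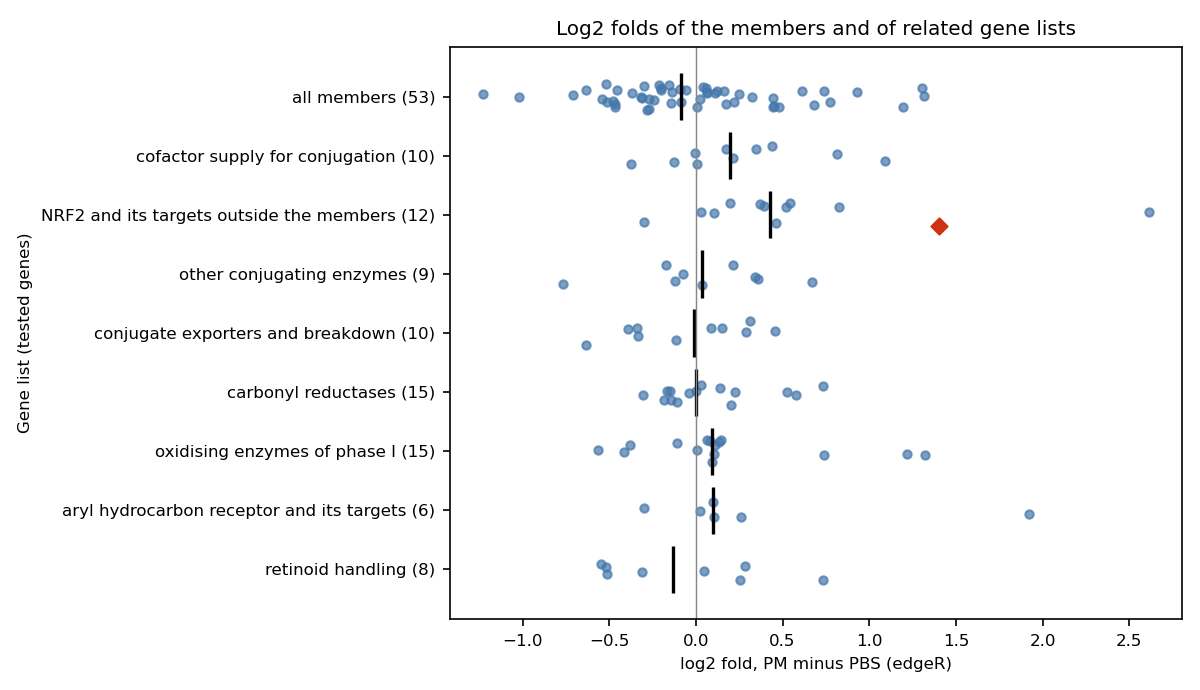
Each point is the log2 fold of a tested gene in edgeR, PM minus PBS, for the 53 members and for 8 related gene lists, with a black bar at the list's median; the red diamond is the one gene called, Gpx2. The members centre at -0.09 and the NRF2 genes outside them at 0.43.

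The other lists had medians between -0.13 and 0.10, and edgeR called none of their genes. Their counts without overlap stand beside 15.5% higher and 16.1% lower over all genes. Of 9 other conjugating enzymes 2 lay higher and 1 lower without overlap, with a median log2 fold of 0.04. The lower one was Inmt, an N-methyltransferase very abundant in mouse lung fibroblasts, at 2750 and 2565 CPM in PBS and at 1719, 1263 and 1710 CPM in PM (edgeR, Benjamini-Hochberg adjusted p = 0.0530). Inmt is also in the fibroblast list above, so the 2 lists are not independent here. Of 10 exporters and breakdown enzymes of conjugates 1 lay higher and 1 lower without overlap. Of 15 carbonyl reductases 3 lay higher and 1 lower, with a median of 0.00. Cbr2, a carbonyl reductase typical of lung and the most abundant of them, stood at 4936 and 6646 CPM in PBS lung and at 5031, 4993 and 7694 CPM in PM, so the groups overlapped. Of 15 oxidising enzymes 2 lay higher and 2 lower, among them Cyp2a5 at 10.5 and 9.62 CPM in PBS lung and 25.1, 16.9 and 28.3 CPM in PM. Of 6 tested genes of the aryl hydrocarbon receptor list 1, Cyp1b1, lay higher without overlap, and its classical target Cyp1a1 was at 0.247 to 0.716 CPM in all libraries. Of 8 retinoid handling genes 3 lay higher and 3 lower, among the lower ones the esterifying enzyme Lrat and the receptor Rarg.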

How the data were processed

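RNA of lung tissue was sequenced in 6 samples, 3 labelled PBS and 3 labelled PM. The authors deposited raw, unnormalized read counts for each gene symbol. The library kit was Lexogen SENSE mRNA-Seq, per the labels' protocols. TopHat, Cufflinks and mm10 are named, per the submitters' processing notes; versions, roles, counting program and strand use: not given in the sources used here. Exons of 18 members overlap another gene on the opposite strand in GENCODE M21 (GRCm38, the assembly of mm10), and those reads cannot be told apart.

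The table of PBS replicate 2 equals that of PBS replicate 1 and its header names that library, so the pair counted once. Blank entries were left out, and for repeated symbols the entry with the most counts was kept (0.0251% of counts set aside, no member affected). Counts were fitted with edgeR 4.0.16 in R 4.3.3: filterByExpr, TMM, robust quasi-likelihood test, two-sided, no covariates, Benjamini-Hochberg adjustment over all 14057 tested genes. SE was obtained from the log2 fold and the F statistic. The procedure was tested on simulated counts. DESeq2 1.42.0, other scalings, filters and library sets were alternatives. The floor of 3 counts lies between 0.340 and 0.405 CPM before scaling, and covers counting error only.

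Members and lists were chosen with earlier results of these data known. Named members are any called or with no counts in a whole group (no member was either) and, per family, the one with the highest mean CPM and, from 1 CPM on, the 2 with the smallest p in each direction; others named were chosen after their values were seen. A few single genes are not reported here, though counts and sums include them.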

Additional observations from a re-analysis of the deposited data

How the results depend on the processing

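The count of members called by edgeR was 0 in the reported fit and remained 0 with DESeq2's size factors, with either other filter on low counts, without Rn45s and haemoglobin genes, and at an adjusted p below 0.10. It was 3 with all 6 tables as deposited (Adh7, Aldh1a2 and Gstm2; 4.59% of all genes) and 1 with DESeq2 (Gsto1; 2.05%). With 1 library left out it ranged from 0 to 5, with 5 without PM replicate 3 (3.06% of all genes). At an unadjusted p below 0.05 edgeR gave 8 members in the reported fit. The replicate number as a block (replicate block) gave 1 member, Gsto1 (edgeR, Benjamini-Hochberg adjusted p = 0.0182). It raised the count over all genes from 32 to 353. In that fit PM replicate 2 has no PBS library of its number and does not inform the fold. The folds with the block thus rest on replicates 1 and 3 alone. The labels give only the shared number, so the numbers were not taken as pairs. Deviations of same-numbered libraries from their group means correlated across genes at -0.03 (replicate 1) and 0.07 (replicate 3). The PBS group has only 2 distinct libraries, whose deviations mirror each other, so these correlations cannot decide whether the numbers mark pairs. The median log2 fold of the tested members lay between -0.23 (without PM replicate 3) and -0.02 (without PM replicate 1), each within 0.227 of the reported -0.09, the SD between the medians of the PM libraries. That SD comes from the same PM libraries, so leaving out 1 of them could hardly exceed it. Scalings moved the median over all genes by less than 0.1. Each scaling assumes that most genes do not change, so this median could hardly move.

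Of 26 named members 24 kept their direction in every alternative that gave them a value, which is 12 for each but Ephx3, with 11 (not tested without PM replicate 2). Most were named for a small p in the reported fit, and the alternatives reuse its libraries, so a kept direction was likely beforehand. With 1 library left out, log2 folds ranged from -0.0434 to 0.253 for Ugt1a6b, negative without PM replicate 3. Adh5 ranged from -0.369 to 0.0366, positive on leaving out PBS replicate 3 or either of PM replicates 1 and 2, and was 0.0071 with the replicate block. Members without overlap were 7 higher and 7 lower. Added after the data were seen, leaving out PM replicate 2 gave 13 and 12 (24.5% and 22.6% of members, beside 20.9% and 21.2% of all genes). Leaving out PM replicate 3 gave 9 and 22 (17.0% and 41.5%, beside 25.0% and 24.7%). Leaving out a library can only add to these counts, and PM replicate 3 was already seen to be the highest PM library for most members. The larger lower count thus restates that order and is not separate evidence. Depth limits the 14 members that were not tested, with 10 to 46 counts over all libraries.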
